A study of Mus musculus with 3 samples.

Results

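The neuropeptide genes Sst, Gal and Cck were followed across every analysed well of a compound screen in mouse embryonic fibroblasts (MEF), as 3 of the 20471 genes in the count table. These 3 genes were chosen by their levels in these same wells, which were known from earlier results, so their levels by medium and by compound are given as a description and carry no test. The cells were wild-type embryonic fibroblasts, and each well of 3 plates was read by DRUG-seq2, an assay in which reverse transcription in lysate gives the RNA of each well its own barcode before all wells of a plate are pooled. The 222 compound wells held 1 compound each of a kinase inhibitor library for 4 days, in a medium the labels call CFAE+8, and 218 of them had enough counts to be used. On plate 3, further wells carried only a medium name: 4 of bC6FAE[10], 3 of bC6FAE[2], 5 of bC8FAE, 4 of bCSFAE, 4 of bCLFAE, 3 of bCFAE, 3 of basal and 4 of MEF. The labels do not say what these media contain or at which dose the compounds were used, name no vehicle wells, while the series title is about CDK8 as a barrier to reprogramming.

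Neuropeptides are made as larger precursors, cut by proteases in the regulated secretory pathway, stored in dense-core granules and released to act on receptors that mostly couple to G proteins. Sst encodes somatostatin, which inhibits the release of growth hormone, insulin and glucagon. Gal encodes galanin, a peptide of hypothalamic and sensory neurons, and Cck encodes cholecystokinin, a gut hormone that makes the gallbladder contract and one of the most abundant peptides of the cortex. The transcription of many precursor genes responds to cyclic AMP through CREB, a factor that was purified on the Sst promoter. Embryonic fibroblasts are not a textbook source of any of these peptides.

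On mm10 with GENCODE vM21, Sst lies on chromosome 16 from 23889573 to 23890958, with 1 transcript of 2 exons. Gal lies on chromosome 19 from 3409915 to 3414544, and Cck on chromosome 9 from 121489824 to 121495694. All 3 genes are on the minus strand, and 0 exons of other annotated genes overlap theirs. The promoter windows below run 5′ to 3′ on the gene's strand from 250 bases before to 50 bases after the RefSeq start (GRCm38.p6). They are shown because cyclic AMP control is the textbook feature of these genes, and because Vip, the gene of vasoactive intestinal peptide, accompanied Sst in the compound wells described further on. Capitals mark TGACGTCA, the full cyclic AMP response element, and its shorter core TGACG, each searched on both strands (the full element contains the core on both strands).
Sst, chr16:23890795-23891094, minus strand: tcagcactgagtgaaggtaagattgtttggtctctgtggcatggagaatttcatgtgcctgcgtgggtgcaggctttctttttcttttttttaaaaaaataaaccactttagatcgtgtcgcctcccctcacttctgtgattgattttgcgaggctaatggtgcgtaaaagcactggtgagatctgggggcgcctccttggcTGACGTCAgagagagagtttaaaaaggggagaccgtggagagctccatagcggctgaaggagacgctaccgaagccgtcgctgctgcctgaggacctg
Gal, chr19:3414495-3414794, minus strand: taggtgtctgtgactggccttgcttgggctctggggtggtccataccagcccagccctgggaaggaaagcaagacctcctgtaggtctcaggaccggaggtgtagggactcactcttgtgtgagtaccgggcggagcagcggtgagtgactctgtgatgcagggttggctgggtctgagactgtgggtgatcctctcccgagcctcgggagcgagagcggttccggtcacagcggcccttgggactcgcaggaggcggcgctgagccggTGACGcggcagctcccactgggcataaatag
Cck, chr9:121495645-121495944, minus strand: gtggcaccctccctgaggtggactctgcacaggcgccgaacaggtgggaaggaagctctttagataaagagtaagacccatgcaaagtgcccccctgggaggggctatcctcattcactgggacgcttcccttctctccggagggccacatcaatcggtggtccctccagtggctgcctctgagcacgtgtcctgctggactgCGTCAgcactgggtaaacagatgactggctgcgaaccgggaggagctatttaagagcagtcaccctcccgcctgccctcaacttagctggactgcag
Vip, chr10:5638968-5639267, plus strand: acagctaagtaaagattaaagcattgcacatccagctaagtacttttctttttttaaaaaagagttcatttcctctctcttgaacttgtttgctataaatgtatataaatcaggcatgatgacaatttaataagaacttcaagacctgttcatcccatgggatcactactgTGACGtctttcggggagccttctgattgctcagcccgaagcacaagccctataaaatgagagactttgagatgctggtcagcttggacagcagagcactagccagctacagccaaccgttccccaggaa
The Sst window held the full element from 48 to 41 bases before the start. A core stood 47 to 43 bases before the start of Cck on the opposite strand, 79 to 75 bases before the start of Vip, and 20 to 24 bases after the start of Gal. Of all 32851 windows of this kind, 1.79% held the full element and 20.8% the core. These matches describe letters in a window and were not tied to binding.

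Depth set the limits of what could be seen. The median total count of a screening well was 318166 on plate 1, 606767 on plate 2 and 427868 on plate 3, and wells named for a medium held 119295 to 726228 counts. The lowest of these, bC8FAE 4 with 119295 and MEF 3 with 138747, stood apart in depth. Levels are given as CPM, each count divided by the total of its well and scaled alike in all wells. The 2 wells named nocell held 0 counts of Sst, Gal and Cck. All 12 fibroblast markers on the list were detected in the media, with a summed level of 5672 to 11548 CPM over the 30 wells. In bulk wells, fewer expressing cells and less RNA per cell cannot be told apart.

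Across the media, Cck was highest in MEF wells and lower in every other medium. Cck stood at 15.1, 23.0, 18.6 and 37.2 CPM in the bC6FAE[10] wells, and at 25.8, 15.5 and 36.8 CPM in the bC6FAE[2] wells. The 3 bCFAE wells held 7.52, 5.51 and 11.6 CPM, the 3 basal wells 67.7, 99.8 and 53.9 CPM, and the 4 MEF wells 116, 176, 195 and 405 CPM. The MEF wells were thus all above the basal wells, which were all above every well of the other media, and the spread among MEF wells was wide. The 5 bC8FAE wells held 7.91, 4.34, 5.06, 0 and 17.9 CPM, the 0 being the shallow well bC8FAE 4. Cck ranged from 2.85 to 7.19 CPM in bCSFAE and from 1.94 to 7.35 CPM in bCLFAE.

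Ordered by mean, Cck was at 4.02 ± 2.5 CPM in bCLFAE (SD, n = 4 wells), 4.88 ± 2.01 in bCSFAE (n = 4), 7.04 ± 6.70 in bC8FAE (n = 5), 8.22 ± 3.12 in bCFAE (n = 3), 23.5 ± 9.69 in bC6FAE[10] (n = 4), 26.0 ± 10.7 in bC6FAE[2] (n = 3), 73.8 ± 23.6 in basal (n = 3) and 223 ± 126 in MEF (n = 4). The wells of bCFAE and bC6FAE[10] did not overlap, nor did those of bC6FAE[2] and basal or those of basal and MEF. Each other pair of neighbours in this order overlapped and differed by less than the larger SD of the pair. The fitted log2 fold change of Cck was -3.36 ± 0.47 (SE) for bCFAE against basal and -1.50 ± 0.27 for basal against MEF. It was -4.76 ± 0.35 for bC8FAE against MEF and 1.59 ± 0.54 for bC6FAE[10] against bCFAE. It was 0.09 ± 0.69 for bC8FAE against bCFAE and -0.16 ± 0.46 for bC6FAE[10] against bC6FAE[2], both smaller than their errors. All these values come from 1 edgeR fit of the 30 medium wells, and several of them share wells.

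Gal followed another order. It was counted 4, 4, 5 and 6 times in the bC6FAE[10] wells, which is 7.54, 7.68, 11.6 and 13.9 CPM. The bC6FAE[2] wells held 3, 0 and 1 counts, the bCSFAE wells 1, 0, 2 and 0, the bCFAE wells 0, 1 and 0, and the basal wells 0, 0 and 2. No count of Gal fell in the bC8FAE, bCLFAE or MEF wells. The bC6FAE[10] wells therefore all lay above every other medium well, at 10.2 ± 3.12 CPM (n = 4) against 3.0 ± 2.97 CPM in bC6FAE[2] (n = 3) and 0.459 ± 0.795 CPM in bCFAE (n = 3). On summed counts, Gal was 3.18-fold higher in bC6FAE[10] than in bC6FAE[2] (19 against 4 counts, exact 95% interval 1.06 to 12.9, counting error only). It was 18.1-fold higher in bC6FAE[10] than in bCFAE (19 against 1 count, interval 2.88 to 751). In bC8FAE, Gal was at least 6.20-fold lower than in bC6FAE[10], with the bC8FAE group set at a floor of 3 counts over its summed total.

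Sst was near the limit of detection in every medium. Each of the 4 bC6FAE[10] wells held exactly 1 count (2.11 ± 0.242 CPM, n = 4). Single wells of bC6FAE[2], bCSFAE and basal held 2, 1 and 1 counts, and the bC8FAE, bCLFAE, bCFAE and MEF wells held 0. Neither Sst nor Gal passed the filter on low counts of the media fit, so they have no fitted fold change there. The floor of 3 counts over the summed MEF total corresponds to 2.47 CPM, so a level like that of bC6FAE[10] was not detectable in MEF at this depth.

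**Figure D1:**
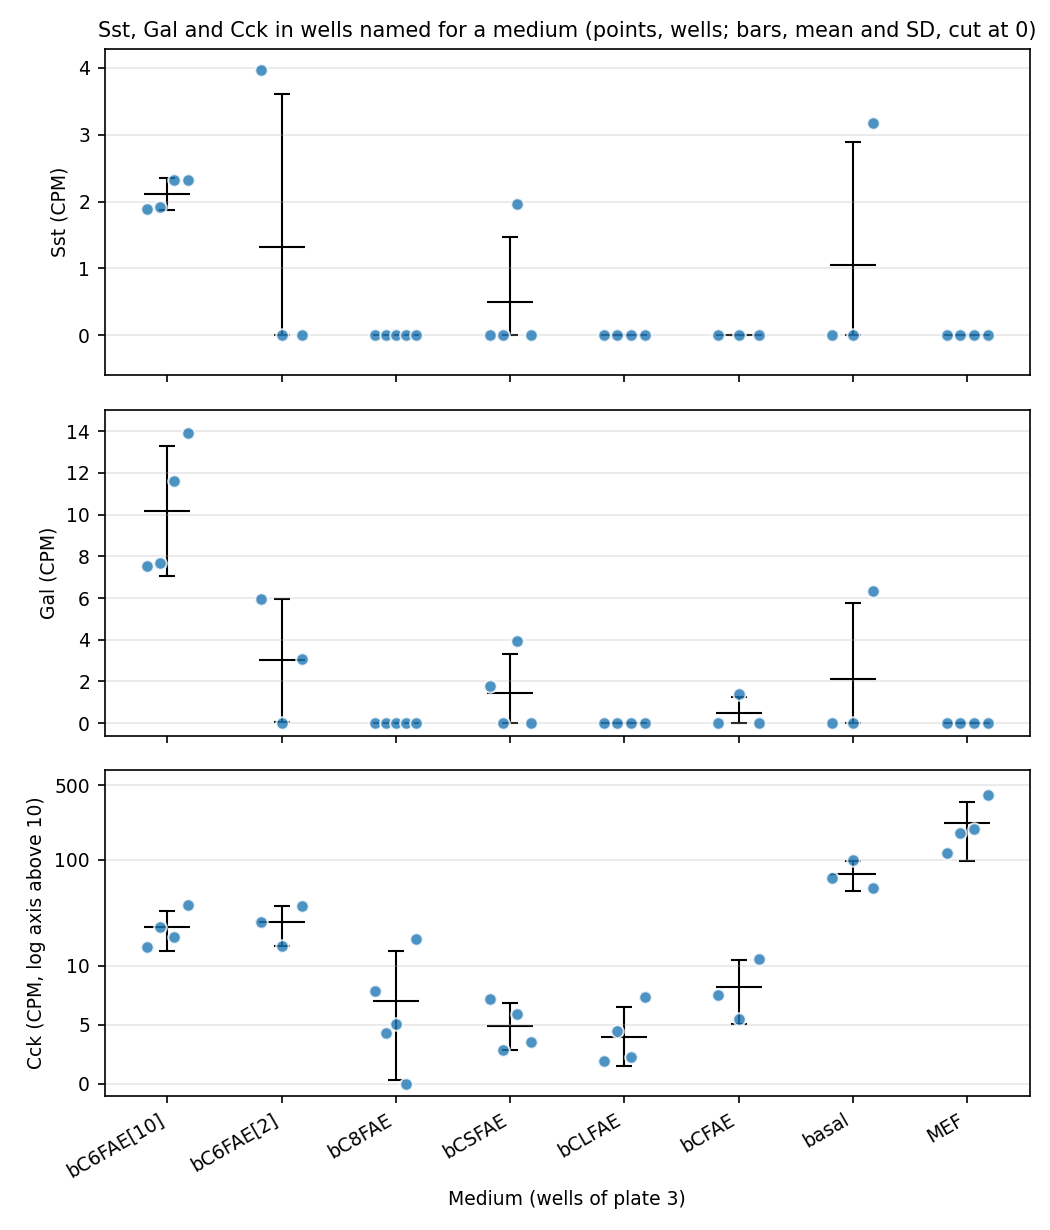
Sst, Gal and Cck in CPM (vertical axes; the Cck axis is linear to 10 and logarithmic above) for each well named for a medium on plate 3. Points are wells and bars are the mean and SD, cut at 0 from below; Gal is highest in the 4 bC6FAE[10] wells (7.54 to 13.9 CPM), and Cck in the 4 MEF wells (116 to 405 CPM).

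Other peptide precursors were measured beside them. Of 59 listed precursor genes in the table other than the members, 10 passed the filter in the media fit. In bCFAE against basal, where 34.5% of all 6985 genes tested (16.3% higher, 18.2% lower) were called at an adjusted p under 0.05 (edgeR's quasi-likelihood test with Benjamini-Hochberg adjustment), 7 of the 10 rose and 1 fell, with a median log2 fold change of 1.84 and a median of 0.00 over all genes. Penk, the proenkephalin gene, rose by 1.45 ± 0.25 (SE; 148 CPM in bCFAE, 48.4 CPM in basal; adjusted p = 3.13e-06). Calca and Calcb, closely related calcitonin gene-related peptide genes between which reads may be shared, rose to 28.4 and 50.7 CPM in bCFAE, against 0.94 CPM each in basal. Adm, the gene of the vasodilator adrenomedullin, fell by 2.70 on the log2 scale (± 0.29; 13.0 CPM in bCFAE, 82.1 CPM in basal; adjusted p = 1.35e-11). Adm was thus the 1 listed precursor called lower in this comparison, in which the Cck wells did not overlap and were lower in bCFAE.

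In basal against MEF, 0.687% of genes were called (0.372% higher, 0.315% lower) and 0 of the 10 precursors; at an unadjusted p under 0.05 the fit held 664 genes, and DESeq2 called 31 of the 2379 genes it gave an adjusted p, among them 11 of the 41 listed genes, of which 0 were called. The count of 48 genes called here was 25 without basal 1, 31 without basal 3 and 30 without MEF 4, and 76 without the shallow wells MEF 3 and bC8FAE 4. In bC8FAE against MEF, 32.1% of genes were called (15.2% higher, 16.9% lower), and 8 of the 10 precursors rose while Adm fell by 3.20 ± 0.32 (7.72 CPM in bC8FAE, 70.5 CPM in MEF). Grp, the gastrin-releasing peptide gene, Calca and Calcb had 32, 29 and 33 counts in bC8FAE and 0 in MEF. With MEF set at the floor of 3 counts over the group, Grp was at least 6.93-fold higher in bC8FAE, Calca at least 6.28-fold and Calcb at least 7.15-fold. Penk averaged 385 CPM in bC8FAE wells, against 73.1 CPM in MEF wells.

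The medium with the highest Gal also held the highest mean of 8 of the 10 precursors. In bC6FAE[10] against bCFAE, 13.6% of genes were called (7.59% higher, 6.06% lower), and 9 of the 10 precursors rose and 0 fell, with a median log2 fold change of 1.37 and a median of -0.01 over all genes. Pnoc, the prepronociceptin gene, rose by 2.81 ± 0.46 (43.0 CPM in bC6FAE[10], 6.04 CPM in bCFAE; adjusted p = 5.08e-06). Sct, the secretin gene, rose by 3.10 ± 0.45 (33.5 CPM in bC6FAE[10], 3.66 CPM in bCFAE; adjusted p = 3.52e-07). Nts, the neurotensin gene, had 24.5 CPM in bC6FAE[10] and no count in bCFAE, which makes it at least 14.9-fold higher. Penk, at 421 CPM in bC6FAE[10] and 148 CPM in bCFAE, rose by 1.56 ± 0.16, and Calcb, at 69.8 and 50.7 CPM in the same 2 media, was not called.

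With bC6FAE[2] in place of bC6FAE[10], 8.58% of genes were called against bCFAE (5.03% higher, 3.55% lower), and 5 of the 10 precursors rose; the 599 genes called were 368 without bC6FAE[2] 1. Between bC6FAE[10] and bC6FAE[2], 0.415% of genes were called (0.272% higher, 0.143% lower) and 0 of the 10 precursors, 0 also with DESeq2, while 544 genes had an unadjusted p under 0.05. The 29 genes called were 8 without bC6FAE[2] 1 or 2, and 18 without bC6FAE[10] 3 or 4. In bC8FAE against bC6FAE[10], 9.06% of genes were called (3.52% higher, 5.54% lower), and 7 of the 10 precursors fell and 0 rose. Pnoc fell by 2.47 on the log2 scale (± 0.43; 8.11 CPM in bC8FAE, 43.0 CPM in bC6FAE[10]; adjusted p = 3.71e-05). In bC8FAE against bCFAE, 11.1% of genes were called (5.58% higher, 5.5% lower), Penk and Nts rose and Calcb fell by 1.47 ± 0.31; the 774 genes called were 489 without bCFAE 1. In bCLFAE against bCFAE, with 6.5% of genes called (3.21% higher, 3.29% lower), Penk and Nts rose and Calca and Calcb fell, and in bCSFAE against bCFAE, with 6.1% called (3.18% higher, 2.92% lower), Penk, Sct and Stc1 rose. Without bCFAE 1, the 454 genes called in bCLFAE against bCFAE were 276 and the 14 listed genes called were 6, and the 426 genes called in bCSFAE against bCFAE were 279. Beside the calls of bC8FAE against bC6FAE[10] stood 0 counts of Gal in bC8FAE and 19 in bC6FAE[10], and a mean Cck level of 7.04 CPM in bC8FAE and 23.5 CPM in bC6FAE[10], with wells that overlapped.

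**Figure D2:**
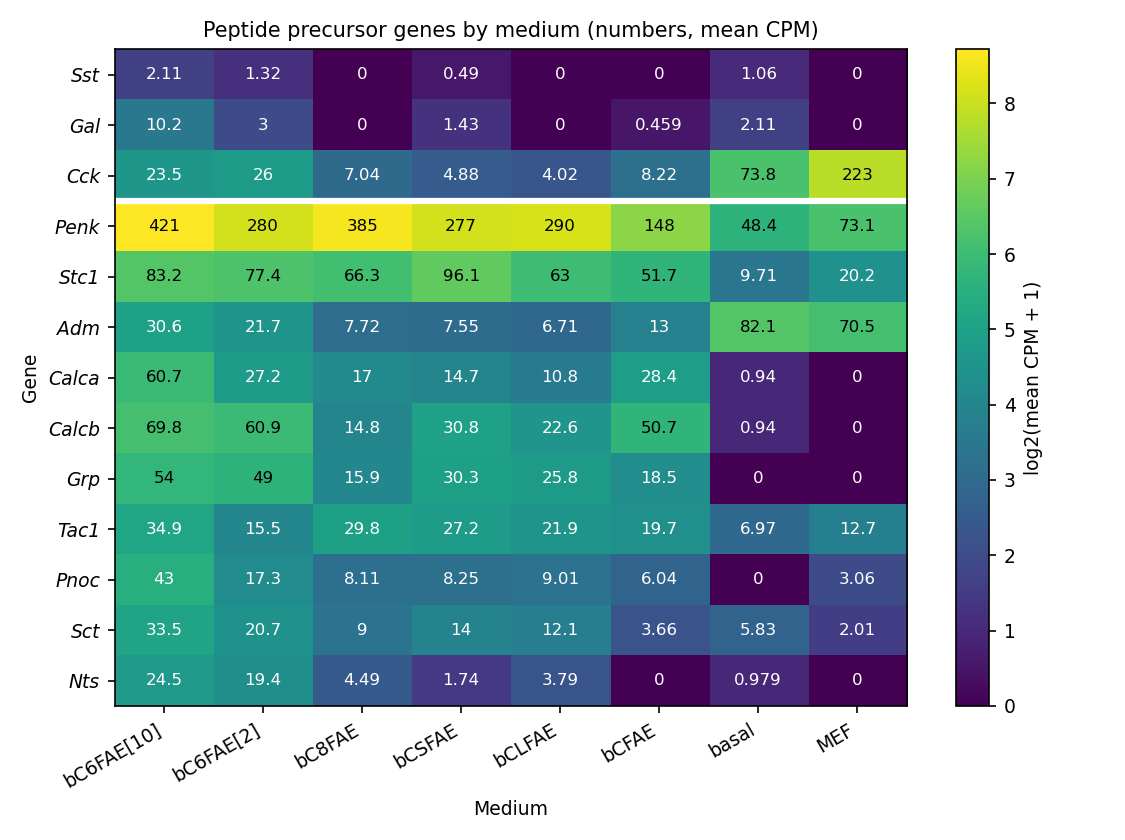
Mean CPM (numbers) and log2(mean CPM + 1) (colour) of Sst, Gal and Cck and of the 10 other precursor genes that passed the filter, for the 8 media on the horizontal axis. Cck is highest in MEF (223 CPM) and Adm in basal (82.1 CPM), while 8 of the 10 other precursors, Penk, Calca and Grp among them, have their highest mean in bC6FAE[10].

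The genes that cut and pack precursors were tested as a second list, of which 11 of 35 passed the filter. In bCFAE against basal, 8 rose and 2 fell, beside 16.3% and 18.2% of all genes. Cadps, a priming factor of dense-core granules, had 27.6 CPM in bCFAE and no count in basal, and Cpe, the carboxypeptidase that trims cut peptides, rose by 1.28 ± 0.22 (205 CPM in bCFAE, 77.4 CPM in basal; adjusted p = 2.87e-06). Ctsl, a lysosomal protease with a broad range of substrates, was the most abundant of them at 3947 CPM in bCFAE and 1172 CPM in basal. Pam, the enzyme that amidates the end of peptides such as cholecystokinin and galanin, fell by 0.73 on the log2 scale (± 0.27). In bC6FAE[10] against bCFAE, 4 rose and 1 fell, beside 7.59% and 6.06% of all genes: Pam rose by 1.32 ± 0.21 (89.7 CPM in bC6FAE[10], 36.8 CPM in bCFAE; adjusted p = 2.32e-06), and Pcsk1n, which encodes an inhibitor of a prohormone convertase, by 4.23 ± 0.39 (74.7 CPM in bC6FAE[10], 3.97 CPM in bCFAE; adjusted p = 3.96e-13).

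Of the list of cyclic AMP and CREB target genes, 16 of 31 were measured. In bCFAE against basal, 6 rose and 3 fell, beside 16.3% and 18.2% of all genes. Nr4a1, an immediate early nuclear receptor, rose by 2.84 ± 0.64 (25.1 CPM in bCFAE, 3.01 CPM in basal; adjusted p = 0.000313), and Cebpb, a basic leucine zipper factor, fell by 1.82 on the log2 scale (± 0.20; 69.1 CPM in bCFAE, 229 CPM in basal). In bC6FAE[10] against bCFAE, 3 rose and 1 fell, beside 7.59% and 6.06% of all genes, with a median log2 fold change of -0.39. Of 38 listed neural and endocrine transcription factors, 4 passed the filter, of which 1 rose and 2 fell in bCFAE against basal. Rcor2, a corepressor gene, rose by 1.97 ± 0.58 (26.2 CPM in bCFAE, 5.87 CPM in basal; adjusted p = 0.0054 by edgeR). Meis1, a homeobox factor, fell by 1.92 on the log2 scale (± 0.43; 9.82 CPM in bCFAE, 34.7 CPM in basal; adjusted p = 0.000329 by edgeR).

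Markers of other cell types moved with these media. The 18 neuronal markers summed to 662 to 796 CPM in bC6FAE[10], 458 to 640 CPM in bC8FAE, 733 to 793 CPM in bCFAE, 156 to 190 CPM in basal and 173 to 225 CPM in MEF wells, and 4, 5, 6, 9 and 6 of them were at 0 in these 5 media. The 7 endocrine markers in the table summed to at most 4.47 CPM in any medium well and were all at 0 in bC6FAE[2], bCFAE and basal. The 9 glia and Schwann markers summed to 57.6 to 99.8 CPM in bC6FAE[10] and to 15.0 to 27.9 CPM in bCFAE wells. The 7 macrophage markers had their highest sums in the media with the highest Cck, at 34.8 to 95.6 CPM over the wells of the other 6 media, 153 to 339 CPM in basal and 208 to 375 CPM in MEF wells. The summed level of the 6 endothelial markers went the other way, at 48.1 to 142 CPM in those 6 media, 0 to 12.7 CPM in basal and 4.47 to 17.1 CPM in MEF wells. In every medium 2 or 3 of these 6 markers were at 0, so the sums come from only part of the list. The part of these markers in the levels of Gal, Cck and the other precursors was not tested.

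The receptors were barely detected. Over all kept wells, Sstr2 had 44 counts, Sstr1 34, Sstr4 9, Sstr5 5 and Sstr3 1, which are the somatostatin receptors. The galanin receptors Galr2 and Galr1 had 4 and 1 counts, and the cholecystokinin receptor Cckar had 17. No receptor exceeded 3 counts in a well, and none passed the filter of the media fit. Galr3 and Cckbr had no row under these names in the count table.

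In the compound wells, Sst was the gene with the widest range. It had a count in 60 of 223 screening wells kept (218 with a compound and 5 of bC8FAE), and over 3 counts in 10 of them. FIIN_2, an FGFR inhibitor, had 261 counts of Sst, which is 752 CPM (exact 95% Poisson interval 664 to 849), against 5.15 CPM pooled over the other 86 wells of plate 2. Erdafitinib, an FGFR inhibitor on the same plate, had 171 counts or 236 CPM (202 to 274). These 2 wells held 81.5% of the 530 Sst counts of plate 2.

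On plate 1, the highest Sst levels were those of Trametinib (DMSO solvate) with 140 CPM (97.7 to 195), CCT196969 with 110 CPM (74.4 to 157) and GDC_0623 with 99.4 CPM (68.5 to 140). Trametinib and GDC_0623 inhibit MEK and CCT196969 inhibits RAF kinases. The other 89 wells of plate 1 pooled 3.08 CPM when Trametinib was the well set against them. Bemcentinib, an AXL inhibitor on plate 2, followed with 38 counts and 45.7 CPM. The remaining wells over 3 counts were IRAK_inhibitor_6 with 21.6 CPM, GNF_7 with 18.9 CPM, the RAF inhibitor LY3009120 with 18.7 CPM and DPH with 8.63 CPM, each from 6 to 8 counts. All screening wells below them had 0 to 3 counts of Sst, and the plate medians were 0.

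By target class, with classes written from the compounds' main targets, the fitted log2 fold change of Sst against all other screening wells was 7.03 ± 0.41 (SE) for the 3 FGFR inhibitors, 5.35 ± 0.97 for the 3 MEK inhibitors and 3.39 ± 1.09 for the 4 RAF inhibitors, the highest of 27 classes. The lowest fitted classes, PIM, PLK4 and LIM kinase inhibitors, had no count of Sst and no fold of their own. Within classes the wells differed. SU_5402, the FGFR inhibitor with the lowest Sst, had 3 counts in 778242, or 3.85 CPM. The RAF inhibitors Dabrafenib (Mesylate) and BRAF_inhibitor had 0 counts, which allows up to 7.77 and 7.76 CPM by the floor of 3 counts. Ro_5126766, which acts on RAF and MEK, had 0 counts in a well of 45416, which allows up to 66.1 CPM by that floor and up to 81.2 CPM by the exact interval, so its interval overlapped that of GDC_0623. Without CCT196969 the RAF value was 1.49 ± 1.88, and without FIIN_2 the FGFR value was 5.69 ± 0.52.

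The wells with high Sst were read for Etv4, a transcription factor gene that responds to ERK signalling and was chosen here after its values had been seen. Etv4 was at 16.5 CPM with Erdafitinib and 25.9 CPM with FIIN_2, the lowest and second lowest of the 87 wells of plate 2, against a plate median of 170 CPM. It was at 4.01 CPM with Trametinib, 24.1 CPM with GDC_0623 and 25.7 CPM with CCT196969, against a plate median of 130 CPM, and at 13.4 CPM with LY3009120, the lowest of plate 3. Low Etv4 did not always come with Sst. SU14813, the well with the third lowest Etv4 of plate 1, had 23.1 CPM of Etv4 and 0 counts of Sst in 172854, and Brigatinib, second lowest on plate 3, had 53.6 CPM of Etv4 and 0 counts of Sst. IRAK_inhibitor_6 and GNF_7 had 36.0 and 73.1 CPM of Etv4, the fourth and the seventh lowest of plate 2, and Bemcentinib 111.8 CPM, the 10th lowest. DPH had 189.8 CPM, above the plate median.

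**Figure D3:**
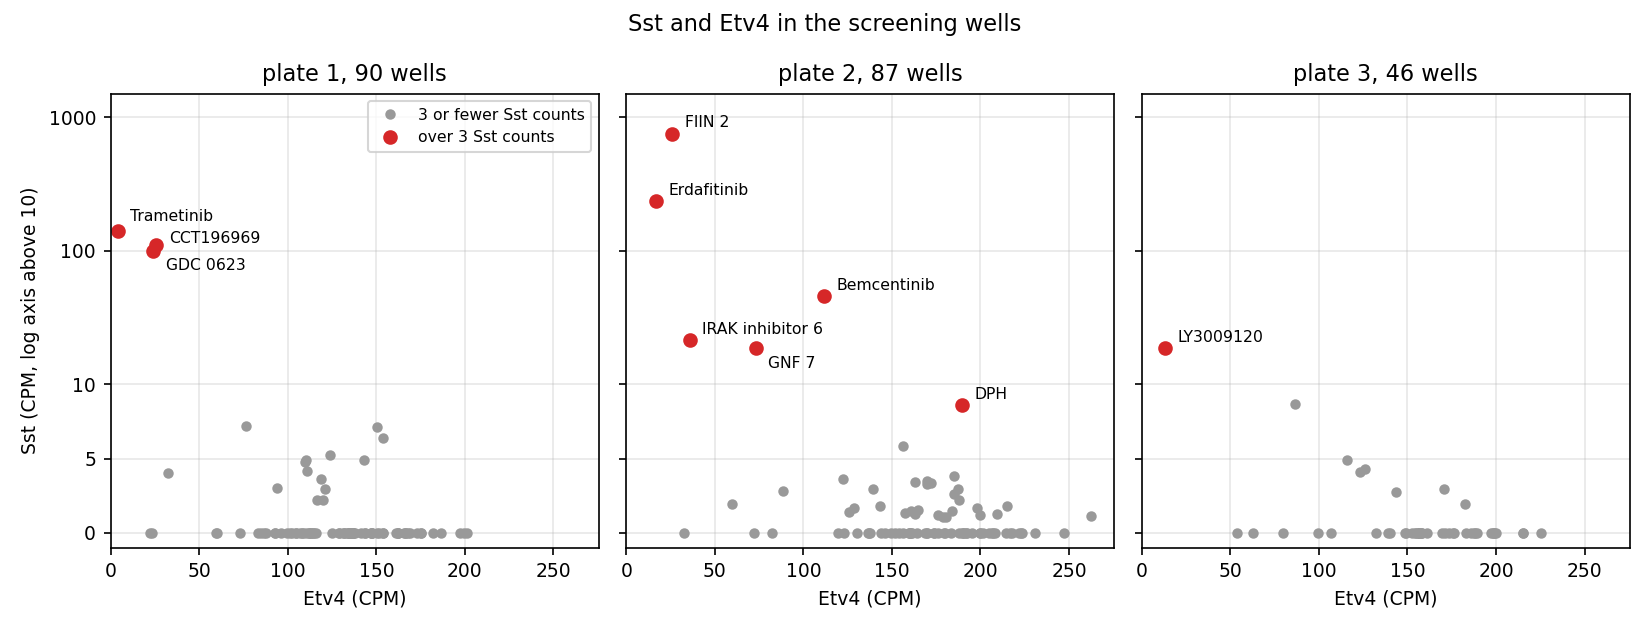
Sst (vertical axis, CPM, linear to 10 and logarithmic above) against Etv4 (horizontal axis, CPM) in each kept screening well, with 1 panel per plate. The 10 wells with over 3 Sst counts are named; 7 of them, among them FIIN_2 at 752 CPM of Sst and Trametinib at 140 CPM, are among the 5 wells of lowest Etv4 on their plate, and Bemcentinib, GNF_7 and DPH are not.

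Of the other precursors, Vip was among the 10 highest wells of its plate in 8 of the 10 wells with over 3 counts of Sst, Adm in 7 and Penk in 6. Calca, Nts and Pnoc were so in 4, Tac1 in 2, Calcb and Sct in 1, and Grp and Npy in 0. The plates held 90, 87 and 46 screening wells, so 10 wells are a larger part of plate 3. The class fit tested 8390 genes, among them 12 listed precursors. Vip rose in the FGFR inhibitor wells by 2.76 ± 0.60 (SE; 56.6 CPM with FGFR inhibitors, 7.80 CPM in the other screening wells; adjusted p = 0.00021 by edgeR), where 12% of genes were called. It rose by 3.63 ± 0.63 with MEK inhibitors (93.7 CPM against 7.29 CPM; adjusted p = 1.59e-06), where 20.3% were called, and by 2.77 ± 0.61 with RAF inhibitors (51.6 CPM against 7.67 CPM; adjusted p = 0.00154), where 2.53% were called. The MEK mean includes the shallow well Ro_5126766, whose Vip level lay below the floor of 3 counts. Among the AXL family inhibitors, with 0.501% of genes called, Vip was the 1 precursor of 12 to rise, by 2.94 ± 0.53 (60.1 CPM against 7.75 CPM; adjusted p = 0.000273). Of the 10 wells over 3 counts of Sst, 9 also had over 3 counts of Vip, which is 90% of the Sst wells and 20.9% of the 43 Vip wells. The AXL inhibitors SGI_7079 and UNC2025 had 77.5 and 52.4 CPM of Vip with 0 counts of Sst, so the genes did not always go together. Single wells decided some of these calls: no listed gene was called in the AXL class without SGI_7079 (1 gene called in all, 21 without Bemcentinib and 20 without UNC2025, against 42 with all 3), nor in the RAF class without LY3009120 (5 genes). The RAF class had 212 genes called with all 4 wells, 53 without CCT196969 and 341 without Dabrafenib and likewise without BRAF_inhibitor. The genes called in the FGFR class were 1007, against 129 without Erdafitinib, 287 without FIIN_2 and 2132 without SU_5402. Of the 55 listed genes tested, 12 rose and 4 fell in the FGFR class, against 1 and 0 without Erdafitinib, 4 and 0 without FIIN_2 and 17 and 10 without SU_5402; which list they belonged to was not recorded. The genes called in the MEK class were 1703, against 922 without GDC_0623 and 501 without Trametinib, and the listed genes that rose or fell were 9 and 5 of 55, against 5 and 6 without GDC_0623 and 2 and 3 without Trametinib. Of the 1703 genes 888 were higher and 815 lower, a split that another scaling of the totals (RLE) gave as 1082 and 543, with 10 and 5 listed genes.

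Other precursors were called in single classes, with no test of 1 class against another. Of the 12 tested, 4 rose and 2 fell with FGFR inhibitors, and the median log2 fold change over the 12 was -0.31. Of all 8390 genes, 12% were called with FGFR inhibitors, 679 higher and 328 lower. Pnoc was at 158.5 CPM with Erdafitinib and 83.6 CPM with FIIN_2 and rose by 2.55 ± 0.41 in the class (adjusted p = 2.45e-07), and Calcb fell by 1.71 on the log2 scale (± 0.59). With MEK inhibitors 3 of 12 rose and 0 fell, beside 20.3% of all 8390 genes called, 888 higher and 815 lower. Nts rose by 3.76 ± 0.47 in that class (77.9 CPM against 5.93 CPM; adjusted p = 1.11e-11), with 184 CPM in the Trametinib well and 27.1 CPM in the GDC_0623 well. Nts was at 2.76 CPM with Erdafitinib and 2.88 CPM with FIIN_2, below the mean of 6.89 CPM over all screening wells. The precursor genes Adm and Vip were called higher in both classes. The wells of the FGFR, MEK, RAF and AXL family classes are different compounds, so their p-values measure the spread between compounds and wells.

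**Figure D4:**
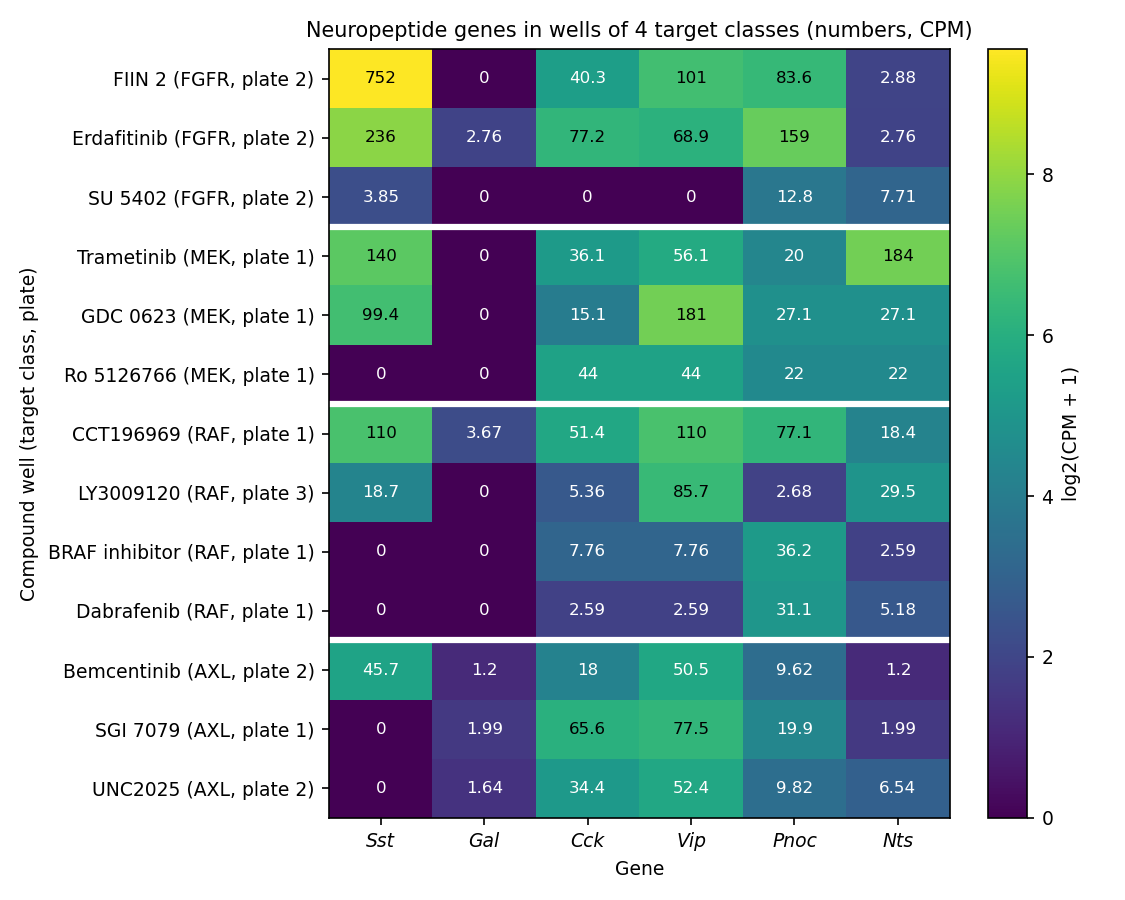
CPM (numbers) and log2(CPM + 1) (colour) of Sst, Gal, Cck, Vip, Pnoc and Nts in each well of the FGFR, MEK, RAF and AXL family inhibitor classes, 1 row per compound well. Sst is above 90 CPM in 5 of the 13 wells (FIIN_2, Erdafitinib, Trametinib, GDC_0623 and CCT196969), Vip is at 44.0 to 181 CPM in these and in 5 others, and Nts is highest with Trametinib (184 CPM).

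The processing genes did not rise as a block in these classes. With MEK inhibitors, of 16 tested, 1 rose and 3 fell: Pcsk6, a proprotein convertase, rose by 2.60 ± 0.63 (19.7 CPM with MEK inhibitors, 4.32 CPM in the other wells), and Ptprn, a receptor-like protein of granule membranes, fell by 2.04 on the log2 scale (± 0.34; 76.8 CPM against 223 CPM). With FGFR inhibitors 2 rose and 2 fell, Pcsk6 rising by 2.09 ± 0.47 and Ptprn falling by 0.76 ± 0.25. Of 21 cyclic AMP and CREB targets tested, 4 rose and 2 fell with MEK inhibitors and 4 rose and 0 fell with FGFR inhibitors. Of all genes, 20.3% were called with MEK inhibitors and 12% with FGFR inhibitors. Pde4b, a cyclic AMP phosphodiesterase, rose in both, by 1.96 ± 0.73 and 2.43 ± 0.40, and Star, which brings cholesterol into mitochondria for steroid synthesis, by 3.69 ± 0.53 and 2.04 ± 0.59. Bucladesine (calcium salt), a cell-permeable cyclic AMP analogue on plate 3, had 0 counts of Sst, Gal and Cck in 426997, which allows up to 7.03 CPM of each.

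The marker lists give the wells of the highest Sst their setting. The 12 fibroblast markers summed to 8149 CPM with FIIN_2 and 10886 CPM with Erdafitinib, against a plate median of 6906 CPM, and to 10744, 7957 and 10957 CPM with Trametinib, CCT196969 and GDC_0623, against a plate median of 5483 CPM. The 18 neuronal markers summed to 291 CPM with FIIN_2, the lowest of the 87 wells of plate 2, and to 361 CPM with Erdafitinib, against a plate median of 567 CPM. On plate 1 they summed to 834 CPM with Trametinib, the third highest sum of the plate. They summed to 434 CPM with CCT196969 and 564 CPM with GDC_0623, against a plate median of 515 CPM. The list was split, as Tubb3 was above and Nefl, Nefm and Gap43 below the plate median in all 5 of these wells. With FIIN_2, Tubb3 was only just above it, at 37.5 CPM against 35.0 CPM, and with Erdafitinib it was at 56.5 CPM. With Trametinib, CCT196969 and GDC_0623, Tubb3 was at 497, 99.2 and 214 CPM, against a plate median of 29.0 CPM. Nefl was at 0, 14.7 and 9.04 CPM in the same wells, against 56.5 CPM. Of 7 endocrine markers, 1 or 2 were detected in each of these 5 wells, at 2.76 to 11 CPM in sum. The epithelial markers summed to 878 CPM with Trametinib, the highest of plate 1, to 25.7 CPM with CCT196969 and to 75.3 CPM with GDC_0623, against a plate median of 38.1 CPM, and to 92.2 CPM with FIIN_2 and 53.8 CPM with Erdafitinib, against 33.1 CPM. The endothelial markers were low in all 5 wells, at 8.64 CPM with FIIN_2, the lowest of plate 2, and 22.1 CPM with Erdafitinib, against a plate median of 73.1 CPM, and at 32.1, 29.4 and 21.1 CPM with Trametinib, CCT196969 and GDC_0623, against 91.9 CPM. The 9 glia and Schwann markers summed to 28.8 CPM with FIIN_2 and 53.8 CPM with Erdafitinib, against a plate median of 24.2 CPM. On plate 1 they summed to 16.0, 88.2 and 51.2 CPM with Trametinib, CCT196969 and GDC_0623, against 21.7 CPM. The 7 macrophage markers summed to 179 and 77.2 CPM with FIIN_2 and Erdafitinib, against 85.5 CPM. They summed to 60.1, 18.4 and 51.2 CPM with Trametinib, CCT196969 and GDC_0623, against 77.8 CPM. High Sst was thus measured in wells with high fibroblast marker sums. The neuronal sums were low on plate 2, while single neuronal markers went both ways on both plates. The part of these markers was not tested.

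Gal had a count in 68 of the 223 screening wells and over 3 counts in 8. The highest was MSC2530818, an inhibitor of CDK8 and CDK19 on plate 2, with 15 counts or 33.6 CPM (18.8 to 55.3). Lck_Inhibitor followed with 18.3 CPM (7.88 to 36.0), BEZ235 (Tosylate), which inhibits PI3K and mTOR, with 15.7 CPM (5.11 to 36.7), APTO_253 with 13.3 CPM (3.63 to 34.1) and the PLK4 inhibitor CFI_400945 (free base) with 10.9 CPM (3.53 to 25.4). MCB_613, BMS_3 and CCT245737 had 5 counts each. These intervals overlapped one another, and that of Lck_Inhibitor overlapped that of MSC2530818. The other CDK8/19 inhibitor, Senexin_A on plate 3, had 1 count of Gal, or 2.76 CPM (0.0698 to 15.4), and its interval lies below that of MSC2530818. Whether the doses of these compounds matched is not known here. In this class of 2 wells, 0.167% of genes were called and 0 of the 12 precursors tested (453 genes at an unadjusted p under 0.05); the 14 genes called were 0 without MSC2530818 and 19 without Senexin_A. Gal did not pass the filter of the class fit.

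Of the 223 screening wells, 10 were over 3 counts of Sst, 8 over 3 counts of Gal and 0 over 3 counts of both. With so few wells over the limit, little or no overlap is also what unrelated genes would give, so this is no finding. MSC2530818 had 1 count of Sst and 10 counts of Cck, a Cck level of 22.4 CPM (10.7 to 41.1). Its Etv4 level of 187.9 CPM lay above the plate median of 170 CPM. The neuronal markers summed to 604 CPM in this well and the fibroblast markers to 9274 CPM, the second highest of plate 2, while 0 of 7 endocrine markers were detected. Its endothelial sum of 134 CPM was the highest of plate 2 and its epithelial sum of 114 CPM the seventh. Its glia and Schwann sum was 67.1 CPM, against a plate median of 24.2 CPM, and its macrophage sum 58.2 CPM, against 85.5 CPM. Among the other wells of high Gal, BEZ235 had the highest epithelial (535 CPM) and macrophage (343 CPM) sums of plate 3, whose medians were 32.4 and 74.3 CPM, Lck_Inhibitor had 228 CPM of epithelial and 221 CPM of macrophage markers, and APTO_253 the lowest fibroblast sum of plate 1 (3975 CPM). The part of these markers in the level of Gal was not tested.

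Cck was the member found in most wells. It had a count in 182 of 223 screening wells, with plate medians of 4.88, 4.60 and 5.43 CPM on plates 1, 2 and 3, near the 7.04 CPM of the bC8FAE wells. The highest level was that of NT157 on plate 2, a compound that targets the insulin receptor substrates, with 167 counts or 322 CPM (275 to 374), which is 69.9 times the plate median. KX2_391 (Mesylate), described as a SRC inhibitor and a tubulin binder, followed with 107 CPM (72.9 to 152), PF_04979064, an inhibitor of PI3K and mTOR, with 92.9 CPM (52.0 to 153), the p38 inhibitor TAK_715 with 84.2 CPM (56 to 122) and Erdafitinib with 77.2 CPM (58.3 to 100). The NT157 interval lies above those of the other 4, which overlap one another. NT157 reached the range of the MEF wells, which were at 116 to 405 CPM, but it was read on another plate.

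A total of 21 wells had over 3 counts and at least 5 times the plate median of Cck, a limit set after the values had been seen. Of these, 4 were among the 10 wells with over 3 counts of Sst (40% of the Sst wells and 19% of the Cck wells): CCT196969, Erdafitinib, FIIN_2 and Trametinib. Another 3 were among the 8 wells with over 3 counts of Gal (37.5% and 14.3%): APTO_253, BEZ235 and BMS_3. Brigatinib, with 75.5 CPM of Cck, and THZ1 (Hydrochloride), with 51.9 CPM, were on plate 3. The plate medians of Cck were 2, 3 and 2.5 counts, so wells below the median are not named. A total of 41 wells had no count of Cck.

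By class, the fitted log2 fold change of Cck was highest for the AXL family inhibitors (1.78 ± 0.65, SE, 3 wells with 18.0 to 65.6 CPM), the FGFR inhibitors (1.68 ± 0.66, 3 wells with 0 to 77.2 CPM) and the mTOR and dual PI3K/mTOR inhibitors (1.44 ± 0.59, 6 wells with 4.60 to 92.9 CPM). The order of these 3 classes turned on single compounds: the AXL value was 1.18 ± 0.85 without SGI_7079, the mTOR value 2.34 ± 0.66 without CC_115, and the FGFR value 0.32 ± 1.13 without Erdafitinib, and SU_5402 had 0 counts of Cck. The lowest were the RIPK inhibitors at -2.79 ± 1.41 and the PIM inhibitors at -1.79 ± 1.63, with 3 counts each in 4 wells, and the IKK inhibitors at -1.70 ± 1.10, with 8 counts in 4 wells. Without LY2409881 the IKK value was -2.55 ± 1.49, and without TP_3654 the PIM value was -2.79 ± 2.30. In the mTOR class, where 17.9% of genes were called, 3 of 12 precursors rose and 1 fell; the 1506 genes called were 781 without BEZ235 and 962 without PF_04979064. Of them 784 were higher and 722 lower, against 1001 and 537 with RLE scaling. Npy, the neuropeptide Y gene, rose by 1.61 ± 0.50 (17.4 CPM with these inhibitors, 3.34 CPM in the other wells; adjusted p = 0.0143), and Sct fell by 0.97 on the log2 scale (± 0.34; 7.87 CPM against 16.4 CPM; adjusted p = 0.035). The mTOR class held CC_115 and CC_115 (hydrochloride) as separate wells, so its wells were not all different compounds.

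The markers differed in the wells of the highest Cck. With NT157 the 18 neuronal markers summed to 2180 CPM, the highest of the 87 wells of plate 2 against a median of 567 CPM, and the fibroblast markers to 3172 CPM, the lowest of that plate, while the macrophage markers summed to 670 CPM, the highest of it. The neuronal list was split in the NT157 well, with 10 of the 18 markers detected. Nefm was at 154 CPM, the highest of plate 2, against a plate median of 45.8 CPM. Gap43 was at 82.8 CPM, the lowest of plate 2, against 159 CPM. Nefl was at 32.7 CPM against 65.5 CPM, and Tubb3 at 30.8 CPM against 35.0 CPM. With KX2_391, PF_04979064 and TAK_715 the neuronal sum was 530, 532 and 499 CPM, near the median of plate 1 of 515 CPM. The macrophage sum was 263 CPM with KX2_391, 310 CPM with PF_04979064, the highest of plate 1, and 141 CPM with TAK_715, against a plate median of 77.8 CPM. The fibroblast sum was 4483, 4229 and 5642 CPM in the same 3 wells, against a plate median of 5483 CPM, and the epithelial sum of PF_04979064 was 477 CPM, the second highest of the plate. None of the 7 endocrine markers was detected in these 4 wells. The part of these markers in the level of Cck was not tested.

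**Figure D5:**
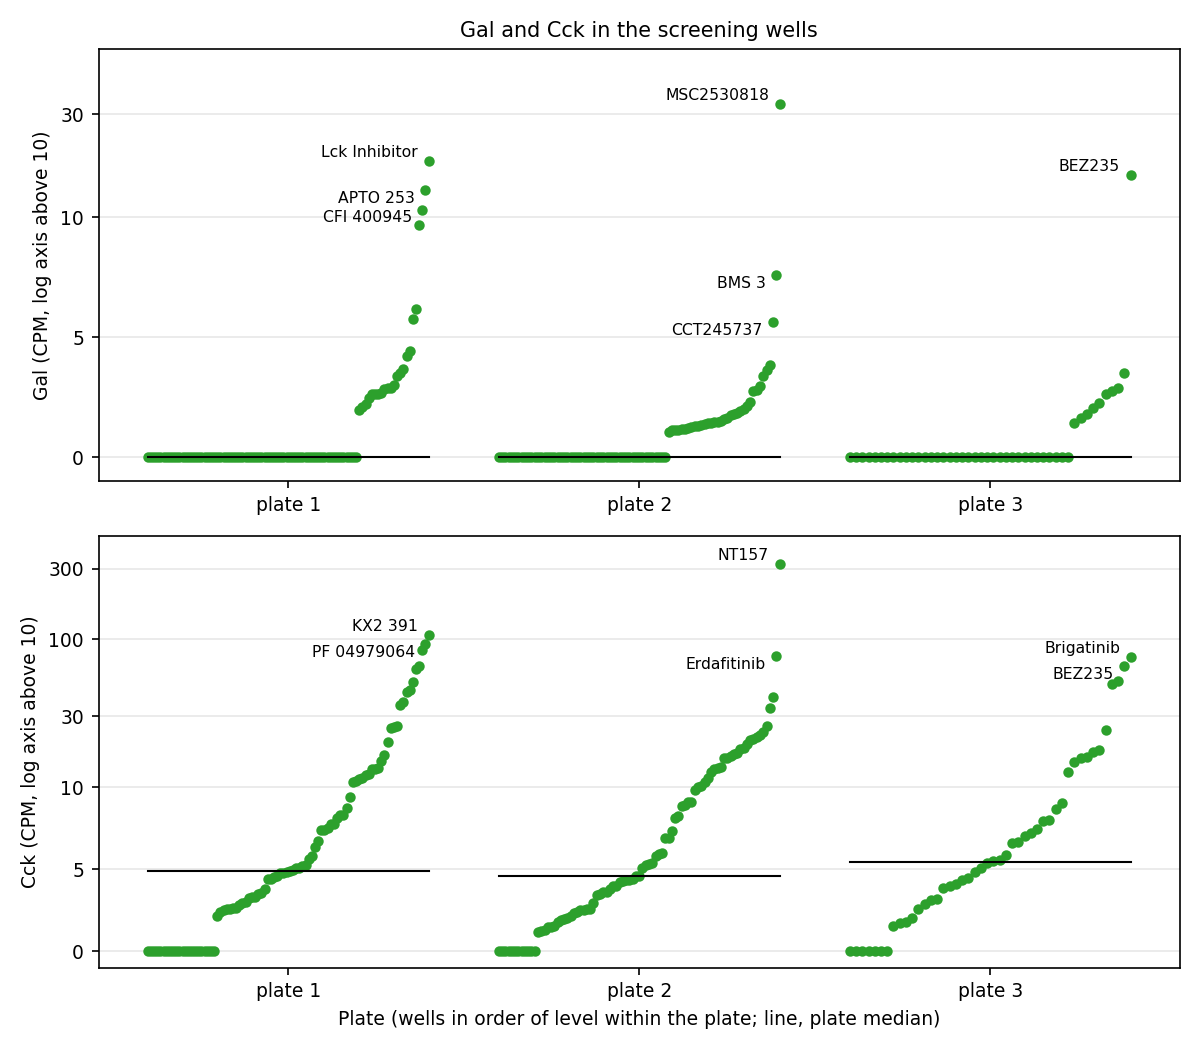
Gal (upper panel) and Cck (lower panel) in CPM (vertical axes, linear to 10 and logarithmic above) in each kept screening well, in order of level within plates 1, 2 and 3, with a line at the plate median. The highest wells of each plate are named; MSC2530818 stands above the other wells for Gal (33.6 CPM) and NT157 for Cck (322 CPM).

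Likeness between genes was measured over the 223 screening wells as a Spearman correlation within each plate, averaged over the 3 plates, for the 7004 genes whose mean reached 10 CPM on every plate. Wells share their plate and library, and the values are a description. The genes most like Cck were Bsg (0.52), Jund (0.50), Cd9 (0.50), Tubb2b (0.50) and Laptm4a (0.49), and those most unlike it Nap1l4 (-0.54) and Itpripl2 (-0.52). For Sst they were Itm2a (0.40), Glce (0.34), Pycr1 (0.34), Vkorc1 (0.34) and Wnt4 (0.33), with Tnfaip2 (-0.40) and Lmna (-0.38) at the other end, and for Gal Bsg (0.32), Mtx2, Cfl1, Nus1 and Ubb (0.31), with Fgfrl1 (-0.36) and Chrac1 (-0.34). For Sst and Gal most wells are at 0, so these weak values give no finding. The level of Cck itself correlated with the well total at 0.06, 0.02 and 0.22 on plates 1, 2 and 3. Over the means of the 8 media, the genes most like Cck were Btg2 (Pearson 0.99), Tmem97 (0.99), Ccl2 (0.98), Map1lc3a (0.98) and Klf3 (0.98), each with its highest mean in MEF. Gal was most like Anxa1 (0.92), Tsc22d1 (0.89), Lrp3, Rfesd and Gm26384 (0.86), and Sst most like Gal (0.97), Sulf2, Cox20, Ddx42 and Tsc22d1 (0.90), each with its highest mean in bC6FAE[10]. These are the highest of 8968 genes over only 8 means. No medium held more than 4 counts of Sst or 19 of Gal in sum, so the media values of Sst and Gal give no finding either.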

How the data were processed

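The authors deposited raw counts per gene and well, 1 table of 3 plates, made with STAR on mm10 per the submitters' processing notes; the sources used here name no other steps. Of 274 columns, 258 matched a label and 16 were not used; 4 repeated columns were counted once, which left 254 wells. Screening wells needed at least 10% of the plate median total. CPM is the count over the well total. Intervals are exact 95% Poisson intervals, and the floor is 3 counts; both cover counting error only. Media were fitted over 30 wells and classes over 223 wells with a plate term, with edgeR 4.0.16 in R 4.3.3 (quasi-likelihood test, TMM, filterByExpr with a minimum count of 10, Benjamini-Hochberg over all genes, called at an adjusted p under 0.05), after a test on simulated data. DESeq2 1.42.0, other scaling, no filter and single wells left out were alternatives. The members and lists were chosen with earlier results of these data known. Nothing says that wells came from separate cultures, so p-values measure only the spread between wells. Named were the 5 highest wells, the 3 highest and lowest classes and the most similar genes of each member, and called list genes with at least 10 CPM in a group, up to 6 a list and comparison by size of change; the other wells and genes named were chosen after their values were seen.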

Additional observations from a re-analysis of the deposited data

Results flagged for a closer look

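Of 9 groups of wells compared for a well apart from the others, 1 held one. Sst in the third bCSFAE well was at 1.96 CPM while the other 3 wells of this medium were at 0, and this value is 1 count. Chance sets a well apart in about 1 of 20 groups of continuous values, a rate that does not apply here, since any single count in a group otherwise at 0 stands apart.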

How the results depend on the processing

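The 91 alternative fold changes of Cck between media and the 120 alternative levels by medium moved by less than the SD between wells. For the levels this limit could hardly fail. Leaving out 1 well cannot move a mean by as much as the SD of its group, and groups with 0 counts stay at 0. Most of the 120 levels therefore say nothing on how stable the levels are. For basal against MEF, 48 genes were called, against 76 without the shallow wells MEF 3 and bC8FAE 4 (an alternative chosen after seeing the data), 31 with DESeq2 and 25 to 62 with single wells left out. For bC6FAE[10] against bC6FAE[2], 29 genes were called, against 49 without the shallow wells and 8 to 30 with single wells left out; of the listed genes 0 were called, against 1 with no filter, 2 without the shallow wells and 0 to 1 with single wells left out. With single wells left out, bC6FAE[2] against bCFAE gave 368 to 476 genes (599 in all wells) and 7 to 9 listed genes (11), and bC8FAE against bCFAE gave 489 to 813 genes (774) and 8 to 14 listed genes (14). The cause was not tested. The 51 alternative class values moved by less than the SD between the wells of the class on the log2 scale, which is wide: leaving out single compounds gave 1.49 to 3.94 for Sst in the RAF class (3.39 with all), 0.32 to 2.30 for Cck in the FGFR class (1.68) and up to 2.34 for Cck in the mTOR class (1.44). FIIN_2 had 616 CPM of Sst with TMM-scaled totals, below the counting interval of 664 to 849 CPM around its 752 CPM. With Pearson in place of Spearman, the 5 most similar genes shared 1 with the list of Sst, 1 with that of Gal and 3 with that of Cck. No paired analysis was possible because each plate is 1 sample and the well numbers do not pair wells across media. Depth limits Sst and Gal most, since most wells hold 0 counts of them.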
